A study of Mus musculus with 41 samples.

Results

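Blood endothelial genes are genes used by the cells that line arteries, capillaries and veins. The set described here holds 34 genes, chosen by symbol out of 47480 gene symbols in the table of bulk mammary tumors. All 34 symbols were found, and all 34 passed the filter used for testing, a mean of at least 10, as did 17208 genes in all.

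RNA-seq was done on 41 untreated mouse mammary tumors grown in the mammary fat pad of Balb/c hosts, 28 with both Plk2 and p53 deleted (Plk2-/-; p53-/-, called Plk2-null here) and 13 with p53 deleted and Plk2 intact (p53-/-), so that every tumor lacks p53. Plk2 encodes polo-like kinase 2, and the study asked how its loss alters such tumors. By the study's methods, tumors arose from transplanted mammary epithelial cells in wild-type recipients and were kept as transplantable pieces, so vessels that grew in from the host carry both genes, and host and tumor RNA are mixed in every value. The labels give no age, do not say which tumors share an origin, and name the whole tumor as the tissue. The labels give the genotype but no tumor subtype, and the study's own account treats tumors PLK2null-743 and p53null-T11 as claudin-low, a subtype low in epithelial junction genes. Tumors PLK2null-732, PLK2null-733, PLK2null-743 and PLK2null-7763 are Plk2-null and p53null-T11 is p53-/-.

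Values are gene-level estimated counts normalized to the upper quartile of each tumor, which was 1000 in p53null-2224L, the tumor checked. Each tumor had an implied 29409598 to 70868089 fragments, a median of 39053967 in the Plk2-null and 58042747 in the p53-/- tumors. A floor of 3 reads corresponded to a value of 1.16 to 2.45, and no blood endothelial gene lay at or under it in any tumor. Plk2 itself, the deleted gene, lay between 36.6 and 553 (median 284) in the Plk2-null tumors and between 186 and 8028 (median 3402) in the p53-/- tumors. It was 54.4 in PLK2null-732, 36.6 in PLK2null-733, 128 in PLK2null-743, 83.3 in PLK2null-7763 and 2516 in p53null-T11.

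As background, endothelial cells hold together through junction proteins such as VE-cadherin and answer to VEGF, angiopoietin and sphingosine phosphate through receptors on their surface. A sprouting vessel is led by tip cells, which secrete such proteins as apelin, endocan and angiopoietin 2, while the lining of a mature vessel makes von Willebrand factor and nitric oxide. Transcription factors of the ETS and SOXF families keep endothelial genes on.

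In PLK2null-732, PLK2null-733 and PLK2null-743, all Plk2-null, nearly the whole set was far higher than in the rest, and PLK2null-7763, also Plk2-null, followed at a lower level. Of the 34 genes, 32 in PLK2null-732, 31 in PLK2null-733, 31 in PLK2null-743 and 27 in PLK2null-7763 lay at least 4-fold above the median of the other 36 tumors, against 9.39, 9.43, 9.55 and 8.75% of all 17208 genes in the same tumors. The genes that stayed out were few: Vwf and Esm1 in all 4 tumors, Apln in PLK2null-733, PLK2null-743 and PLK2null-7763, and Flt1, Eng, Ecscr and Plvap in PLK2null-7763. p53null-T11 had 4 of the 34 genes past that fold, against 4.68% of all genes. The median log2 difference over the set was 5.04 in PLK2null-732, 4.88 in PLK2null-733, 4.78 in PLK2null-743, 3.67 in PLK2null-7763 and 0.63 in p53null-T11, beside 0.04, 0.09, 0.05, 0.20 and -0.20 over all genes. No test goes with these figures, since the labels give these tumors no group, and they were singled out with expression values of these same tumors in view. In bulk tissue, more cells of a type and more RNA per cell cannot be told apart. Nor can RNA of host cells and RNA of tumor cells.

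**Figure D1:**
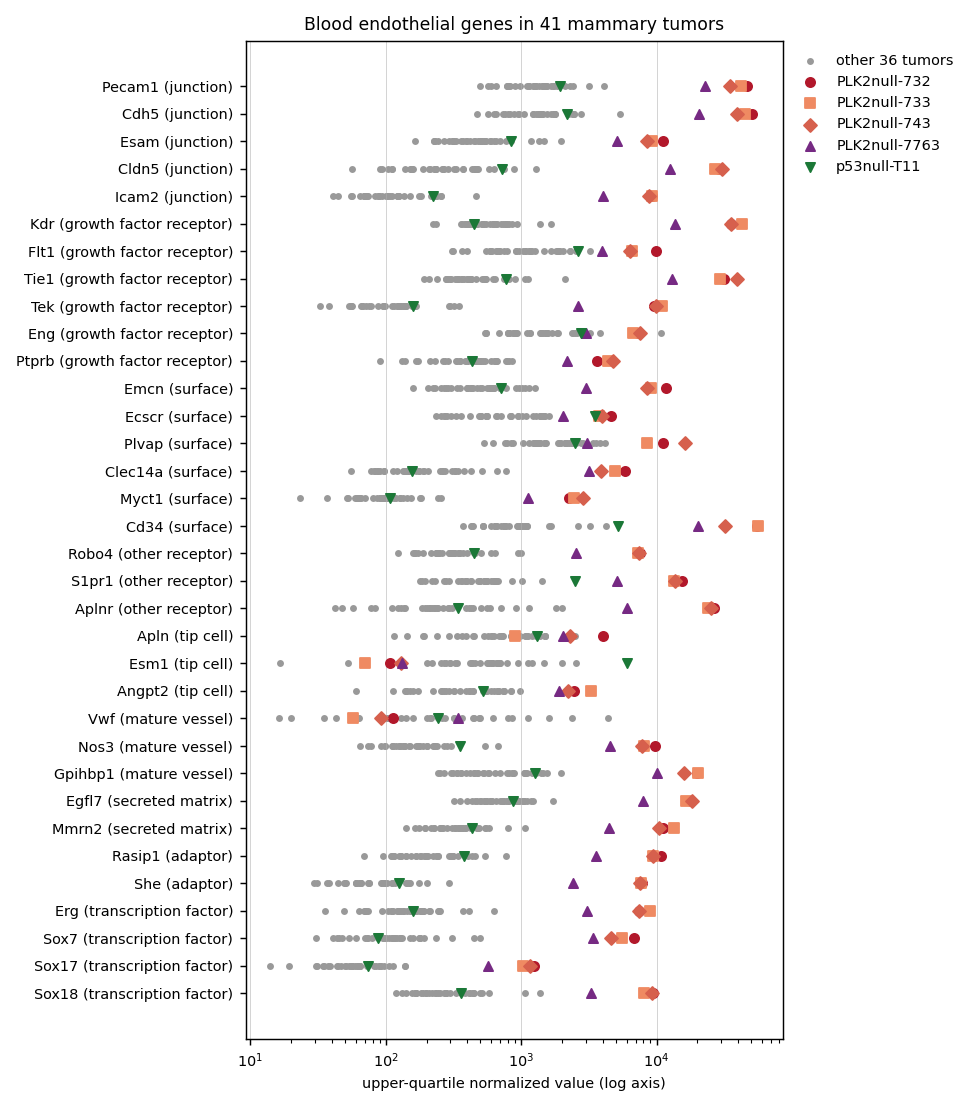
Upper-quartile normalized value (log axis) of each of the 34 blood endothelial genes, with its role in parentheses; grey points are the other 36 tumors and coloured symbols the 5 named tumors. In PLK2null-732, PLK2null-733 and PLK2null-743, 30 of the 34 genes lie right of every grey point, whereas Vwf and Esm1 lie among them.

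The promoters of 5 of these genes are shown because they span the range of behaviour: Tie1, Robo4 and Cldn5 were far above the other tumors in all 4, Apln in 1 of them, and Esm1 in none. Each run is the 250 bases before the start in RefSeq, which for Tie1 and Robo4 lies inside the gene model of GENCODE, so that 212 and 75 of their bases fall within that model and none do for the other 3. It is read 5′ to 3′ on the strand of the gene, with capitals at matches to AGGAAG, the core bound by ETS factors such as Erg, on either strand (CTTCCT).
Tie1 (GRCm38.p6, chr4:118489850-118490099, minus strand): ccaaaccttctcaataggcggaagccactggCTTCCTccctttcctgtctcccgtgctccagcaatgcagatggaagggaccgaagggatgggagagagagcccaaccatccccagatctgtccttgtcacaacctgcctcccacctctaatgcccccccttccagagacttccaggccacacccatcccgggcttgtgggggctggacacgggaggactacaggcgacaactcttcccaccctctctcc
Robo4 (GRCm38.p6, chr9:37401722-37401971, plus strand): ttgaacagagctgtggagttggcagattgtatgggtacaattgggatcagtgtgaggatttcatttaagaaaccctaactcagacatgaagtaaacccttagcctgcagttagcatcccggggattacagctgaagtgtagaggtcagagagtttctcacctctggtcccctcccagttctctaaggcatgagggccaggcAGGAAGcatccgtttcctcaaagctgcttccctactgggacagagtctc
Cldn5 (GRCm38.p6, chr16:18776597-18776846, plus strand): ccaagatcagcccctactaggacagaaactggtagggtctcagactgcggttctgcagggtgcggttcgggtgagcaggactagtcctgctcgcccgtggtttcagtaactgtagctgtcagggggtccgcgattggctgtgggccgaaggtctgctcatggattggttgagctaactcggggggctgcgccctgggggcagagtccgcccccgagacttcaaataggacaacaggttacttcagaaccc
Apln (GRCm38.p6, chrX:48034854-48035103, minus strand): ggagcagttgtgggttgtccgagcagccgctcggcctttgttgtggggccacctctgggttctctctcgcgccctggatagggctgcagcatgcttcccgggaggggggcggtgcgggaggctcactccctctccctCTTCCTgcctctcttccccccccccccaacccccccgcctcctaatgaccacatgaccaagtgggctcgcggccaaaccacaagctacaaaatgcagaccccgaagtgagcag
Esm1 (GRCm38.p6, chr13:113209409-113209658, plus strand): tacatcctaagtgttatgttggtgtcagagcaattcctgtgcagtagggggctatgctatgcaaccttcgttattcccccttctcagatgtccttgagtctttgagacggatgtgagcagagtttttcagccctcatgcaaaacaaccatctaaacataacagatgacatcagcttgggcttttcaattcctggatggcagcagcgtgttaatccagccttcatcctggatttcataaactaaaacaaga
Tie1 and Apln each hold 1 match, on the reverse strand, 219 and 113 bases before the start, Robo4 holds 1 on its own strand 49 bases before it, and Cldn5 and Esm1 hold none. RefSeq promoter entries were found for 17 of the 34 genes, 21 promoters in all. AGGAAG was in 52.4% of these 21 promoters and in 29.5% of all 32851 promoters of the same length. AGATAA, the GATA core, was in 9.52% of them and 9.99% of all, and ACAAT, the SOX core, in 28.6% and 27.7%, each counted on both strands and apart from the other motifs where matches overlap. A match is a string of letters and does not show binding.

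Junction and adhesion genes were high throughout, with all 5 above every one of the other 36 tumors in PLK2null-732, PLK2null-733, PLK2null-743 and PLK2null-7763. Cdh5 (VE-cadherin, the adhesion protein of endothelial junctions, chr8:104101625-104144511 on GRCm38, plus strand) was 50368 in PLK2null-732, 44752 in PLK2null-733, 39310 in PLK2null-743, 20398 in PLK2null-7763 and 2171 in p53null-T11, where the other 36 ran from 468 to 5323 with a median of 1381. The first 4 tumors thus stood clear of the range, by 36.4, 32.4, 28.4 and 14.8-fold over the median, and p53null-T11 stood within it. Cldn5 (claudin 5, the tight junction protein of endothelium, chr16:18776847-18778262, plus strand) showed the largest fold of the set. It was 28681 in PLK2null-732, 27027 in PLK2null-733, 30519 in PLK2null-743, 12653 in PLK2null-7763 and 720 in p53null-T11, with the others at 56.2 to 1287 (median 248). Pecam1 (CD31, a homophilic adhesion protein) reached 46193, 41641, 34792 and 22792 in PLK2null-732, PLK2null-733, PLK2null-743 and PLK2null-7763, beside 500 to 4114 in the other 36. Icam2, an adhesion ligand for leukocyte integrins, lay at 88.3, 88.8, 83.9 and 38.5-fold, and Esam, an immunoglobulin-type junction protein, at 23.9, 19.8, 18.2 and 10.9-fold.

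Among the growth factor receptors and their partners, the range of folds was wide. Kdr (VEGF receptor 2, the main signalling receptor for VEGF-A) was 35693 in PLK2null-732, 42459 in PLK2null-733, 35380 in PLK2null-743, 13681 in PLK2null-7763 and 448 in p53null-T11, with the others at 224 to 1667 (median 530). Flt1 (VEGF receptor 1, a high-affinity VEGF-A receptor that also acts as a decoy) was 9915, 6618, 6402 and 3934 in the first 4 tumors and 2615 in p53null-T11, with the others at 309 to 3248 (median 1049). Both genes were above all 36 others in the 4 tumors, but the fold was 67.3, 80.0, 66.7 and 25.8 for Kdr and 9.45, 6.31, 6.10 and 3.75 for Flt1. The angiopoietin receptor Tek reached 80.1, 92.0, 82.5 and 21.8-fold, and its partner receptor Tie1 75.7, 71.5, 94.5 and 31.5-fold. Ptprb (VE-PTP, the phosphatase that opposes Tek and VE-cadherin phosphorylation) was lower at 8.67, 10.5, 11.4 and 5.22-fold. Eng (endoglin, a TGF-β family co-receptor) was 7322 in PLK2null-732, 6722 in PLK2null-733, 7581 in PLK2null-743 and 3020 in PLK2null-7763. It overlapped the other tumors, since p53null-10151 reached 10819 and p53null-10155 reached 6994, with a median of 1407 over the 36.

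The surface proteins and the remaining receptors were all above the other 36 tumors in PLK2null-732, PLK2null-733 and PLK2null-743. Cd34, a sialomucin shared by endothelium and blood progenitors, was 55232 in PLK2null-732, 56331 in PLK2null-733, 31950 in PLK2null-743, 20167 in PLK2null-7763 and 5179 in p53null-T11, with the others at 375 to 4211 (median 768). All 5 named tumors therefore lay beyond the range for Cd34. Aplnr, the receptor for apelin, was 26597, 23948, 25292 and 6038 in the first 4 tumors and 340 in p53null-T11, with the others at 41.9 to 2006 (median 235). S1pr1, a sphingosine 1-phosphate receptor that stabilises vessels, reached 31.1, 26.9, 27.3 and 10.2-fold, and Robo4, a guidance receptor of endothelium, 24.3, 23.4, 23.8 and 8.14-fold. Emcn (endomucin) lay at 23.9, 18.7, 17.3 and 6.21-fold, Clec14a (a C-type lectin of endothelium) at 33.6, 28.3, 22.5 and 18.4-fold and Myct1 at 23.3, 25.4, 29.6 and 11.5-fold. The lowest folds here were those of Ecscr, at 6.98, 5.74, 6.01 and 3.13, and of Plvap, the protein of endothelial diaphragms. Plvap was 11157 in PLK2null-732, 8546 in PLK2null-733, 16209 in PLK2null-743, 3062 in PLK2null-7763 and 2502 in p53null-T11, and the other 36 ran from 531 to 4128 (median 1508). Thus PLK2null-7763 and p53null-T11 lay inside the range for Plvap.

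The 3 tip-cell genes did not move alike. Angpt2, an angiopoietin that acts on Tek, was 2447 in PLK2null-732, 3295 in PLK2null-733, 2223.9 in PLK2null-743, 1906 in PLK2null-7763 and 526 in p53null-T11, and the other 36 ran from 60.5 to 979 (median 404). All 4 tumors stood above the range, by 6.05, 8.14, 5.497 and 4.71-fold over the median. Apln (apelin, the ligand of Aplnr, chrX:48025146-48034853, minus strand) was 4048 in PLK2null-732, 907 in PLK2null-733, 2275 in PLK2null-743, 2050 in PLK2null-7763 and 1304 in p53null-T11, with the others at 115 to 2485 (median 715). It was above the range in PLK2null-732 alone among the named tumors, and it is the one gene of the set that differed by more than 2-fold among PLK2null-732, PLK2null-733 and PLK2null-743. Esm1 (endocan, a secreted proteoglycan of tip cells, chr13:113209659-113218098, plus strand) was 108 in PLK2null-732, 70.7 in PLK2null-733, 129 in PLK2null-743 and 133 in PLK2null-7763, at 0.21, 0.14, 0.25 and 0.25 of the median of the others, which ran from 16.5 to 2520 (median 527). Those values lay near the low end of that range, while p53null-T11 had 6092, the highest of the 41 tumors.

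The 3 mature-vessel genes split too. Nos3 (endothelial nitric oxide synthase, chr5:24364810-24384474, plus strand) was 9688 in PLK2null-732, 8005 in PLK2null-733, 7760 in PLK2null-743, 4537 in PLK2null-7763 and 356 in p53null-T11, with the others at 64.3 to 673 (median 150). Gpihbp1, which carries lipoprotein lipase across capillary endothelium, was 19754, 20324, 15925 and 10002 in the first 4 and 1268 in p53null-T11, with the others at 244 to 1955 (median 574). Both were above every other tumor in all 4. Vwf (von Willebrand factor, the clotting glycoprotein stored in endothelium and platelets, chr6:125546774-125686679, plus strand) was 112 in PLK2null-732, 57.5 in PLK2null-733, 91.5 in PLK2null-743, 340 in PLK2null-7763 and 242 in p53null-T11. The other 36 ran from 16.3 to 4411 with a median of 215, so all 5 named tumors lay inside the range, and 3 of them below its median. Counted from the highest of 41 tumors, Vwf ranked 27 in PLK2null-732, 37 in PLK2null-733, 32 in PLK2null-743 and 13 in PLK2null-7763.

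**Figure D2:**
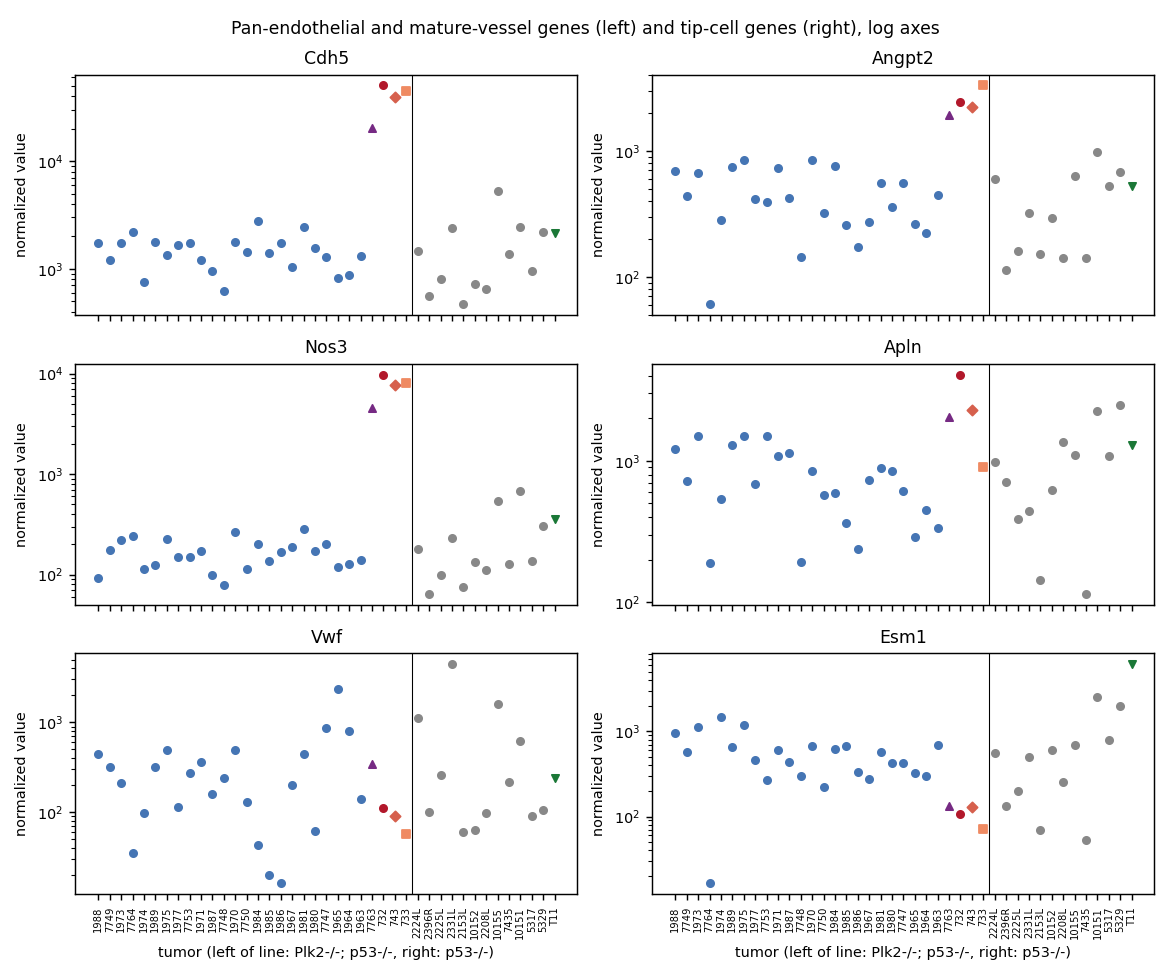
Normalized value (log axes) of a junction gene, Cdh5, and the mature-vessel genes Nos3 and Vwf (left) and of the tip-cell genes (right) in each tumor; blue and grey points are the other Plk2-null and p53-/- tumors, the symbols left of the line PLK2null-7763, PLK2null-732, PLK2null-743 and PLK2null-733 in that order, and the last symbol p53null-T11. Cdh5, Nos3 and Angpt2 stand above all others in those 4 tumors, Vwf lies at 57.5 to 340 there, and Esm1 peaks at 6092 in p53null-T11.

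The secreted matrix proteins, adaptors and transcription factors were all above the other 36 tumors in all 4. Egfl7, a matrix protein of growing vessels, lay at 25.2, 23.1, 25.6 and 11.2-fold and Mmrn2 (multimerin 2) at 32.3, 39.0, 29.9 and 12.9-fold. Rasip1, a Ras-binding protein needed for the vessel lumen, was 54.3, 47.1, 47.5 and 17.96-fold above the median. The adaptor She was 7800 in PLK2null-732, 7701 in PLK2null-733, 7535 in PLK2null-743, 2403 in PLK2null-7763 and 126 in p53null-T11, with the others at 29.6 to 292 (median 75.5), one of the largest folds of the set. Erg, an ETS factor of endothelium, was 7449 in PLK2null-732, 8963 in PLK2null-733, 7431 in PLK2null-743, 3056 in PLK2null-7763 and 159 in p53null-T11, with the others at 35.5 to 630 (median 140). The SOXF factors Sox7 and Sox18 stood at 60.5, 49.4, 41.3 and 30.1-fold and at 36.1, 30.7, 35.6 and 12.6-fold. Sox17, the third SOXF factor, was 1245, 1035, 1156 and 572 in those tumors and 74.0 in p53null-T11, with the others at 14.03 to 139 (median 57.7).

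Against the whole range of the other tumors, 30 of the 34 genes in PLK2null-732, PLK2null-733 and PLK2null-743 together exceeded all 36, where 9.05% of all genes did. The exceptions were Eng, Vwf, Apln and Esm1. With PLK2null-7763 added, 29 of 34 did, Plvap being the further exception, where 4.58% of all genes did. For these 30 genes the lowest of PLK2null-732, PLK2null-733 and PLK2null-743 was 1.97 to 27.5 times the highest of the other 36. The 3 tumors lay close to one another, with 33 of the 34 genes within 2-fold and a median ratio of highest to lowest of 1.27. They were separate libraries: scaled to reads, the median chi-square per gene was 7.54 between PLK2null-732 and PLK2null-733, 11.04 between PLK2null-732 and PLK2null-743 and 12.5 between PLK2null-733 and PLK2null-743, where sampling noise gives 0.455. In PLK2null-7763, 31 of the 34 genes lay below the lowest of the 3, at a median of 44.2% of their median. Neither this count nor the count within 2-fold was made over all genes, so they are not read as traits of the set.

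Per kilobase of exon, the order within the set also differed between these tumors and the rest. In PLK2null-732 the highest levels were those of Cldn5, at 20255 per kilobase, and Cdh5, at 11984, and the lowest that of Vwf at 6.998. At the median of the other 36 tumors Plvap was highest, at 759 per kilobase, Ecscr followed at 374, and She was lowest at 10.5. In p53null-T11 the highest was Esm1, at 2905 per kilobase. In the gene models 11 of the 34 genes overlap a gene on the opposite strand (Eng with Fpgs, Nos3 with Atg9b, Plvap with Gtpbp3, Esm1 with Gzmk and Angpt2 with Mcph1 among them). Strand use in counting is not given in the sources used here, so reads of the partners could not be told apart if strand was not used. Another 4 overlaps, of Eng, Egfl7, Ptprb and Rasip1, are with genes on the same strand, where strand does not tell reads apart.

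p53null-T11, the p53-/- tumor treated as claudin-low, did not share the pattern. Its 4 genes past 4-fold were Esm1 at 11.6-fold, Cd34 at 6.73, Ecscr at 5.33 and S1pr1 at 4.995, and these 4 were also the ones above all 36 others, where 6.35% of all genes were. Ecscr was 3495 in p53null-T11, beside 236 to 1609 in the others, and above the 2053 of PLK2null-7763. S1pr1 was 2486, beside 180 to 1423. At a 2-fold limit in place of 4-fold, 9 genes of the set passed in p53null-T11, against 12.3% of all genes. Kdr, Sox7 and Clec14a were at 0.84, 0.79 and 0.92 of the median of the others.

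Outside the named tumors, p53null-10155 was the highest of the 36 for 19 of the 34 genes and p53null-10151 for 6. How many of all genes peak in these tumors was not counted. In p53null-10155 the median fold over the other 35 tumors was 3.20, and 11 genes passed 4-fold, where 5.45% of all genes did. Its Cdh5 value was 5323 and its Tie1 value 2115. Marker sums of pericytes and fibroblasts, 21102 and 250713 in p53null-10155, were near the highest of the 36 (21148 and 280437), and its platelet marker sum of 1028 was the highest of them. The part of these cells in the result was not tested.

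Set against Cdh5 in the same tumor, some genes kept pace with VE-cadherin and others did not. Cdh5 is itself raised 28.4 to 36.4-fold in PLK2null-732, PLK2null-733 and PLK2null-743, so a gene raised much less has a low ratio by construction. The ratio was not computed over all genes. Of 33 ratios, 7 lay below the range of the other 36 tumors in all of PLK2null-732, PLK2null-733 and PLK2null-743: Flt1, Eng, Vwf, Ecscr, Plvap, Apln and Esm1. None lay above it in all 3, though Kdr and Tek did in PLK2null-733 and PLK2null-743 and Cldn5 in PLK2null-743. Vwf amounted to 0.23% of Cdh5 in PLK2null-732, 0.13% in PLK2null-733, 0.24% in PLK2null-743 and 1.67% in PLK2null-7763, where the other 36 ran from 0.99 to 289% (median 17.4%). Esm1 amounted to 0.22, 0.16, 0.33 and 0.66% in those tumors, the others having 0.79 to 193% (median 37.3%), and to 280% in p53null-T11. Apln stood at 8.04, 2.03, 5.79 and 10.1% (others 8.51 to 211%, median 52.8%), and Flt1 at 19.7, 14.8, 16.3 and 19.3% (others 26.9 to 243%, median 72.8%). Angpt2 was at 4.86, 7.36, 5.66 and 9.35%, within the 2.78 to 63.0% of the others but under their median of 28.9%. Nos3 and Gpihbp1 kept pace, Nos3 at 19.2, 17.9, 19.7 and 22.2% (others 5.35 to 27.4%) and Gpihbp1 at 39.2, 45.4, 40.5 and 49.0% (others 15.3 to 212%). With Pecam1 as the denominator, 5 genes stayed below the range in all 3 tumors (Flt1, Eng, Vwf, Ecscr and Esm1). With Tie1, 17 did, these 5 and Plvap and Apln among them, but also Pecam1, Esam, Emcn and Robo4. Which genes kept pace thus depends on the denominator.

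**Figure D3:**
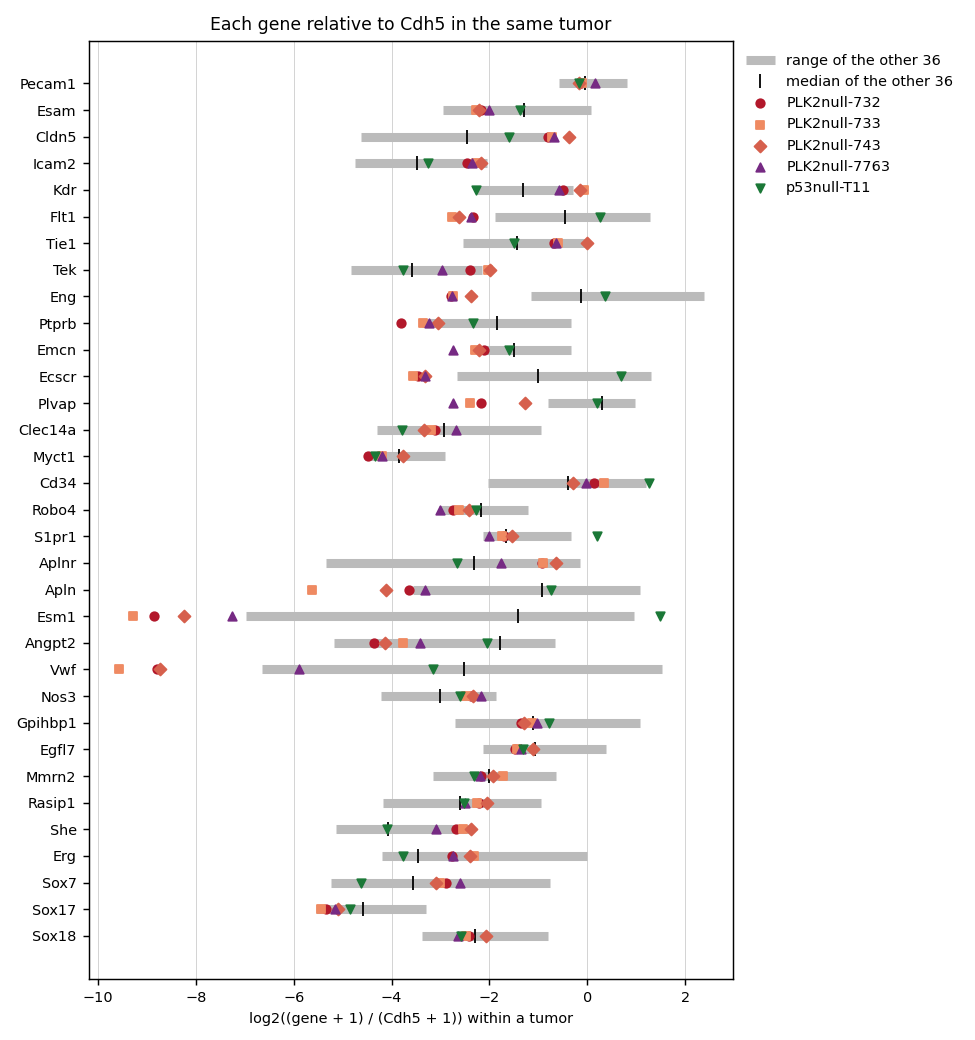
Log2 ratio of each gene to Cdh5 in the same tumor, with the grey bar spanning the other 36 tumors, the tick their median and the symbols the 5 named tumors. Vwf and Esm1 lie furthest left of the bars in PLK2null-732, PLK2null-733 and PLK2null-743, at 0.13 to 0.33% of Cdh5, while Nos3 and Gpihbp1 lie within them.

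Between the genotypes, which the labels do give, few genes of the set were called. In limma over 28 Plk2-null and 13 p53-/- tumors, 2 of 34 genes were higher in the Plk2-null tumors, where 24.3% of all genes were. None was lower, where 15.3% of all genes were, and just 2 genes of the set had an unadjusted p under 0.05. The median log2 difference was 0.35 over the set and 0.10 over all genes. Flt1 ran from 546 to 9915 (median 1237) in the Plk2-null and from 309 to 2615 (median 682) in the p53-/- tumors. The groups overlap, and the log2 difference was 1.07 (SE 0.35, limma adjusted p = 0.0129). Ptprb ran from 212 to 4741 (median 482) and from 90.7 to 668 (median 273), with a log2 difference of 1.11 (SE 0.37, limma adjusted p = 0.0144). The tip-cell gene Angpt2 differed by 0.65 (SE 0.40, limma adjusted p = 0.202) and Vwf by -0.52 (SE 0.57, limma adjusted p = 0.501).

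The 4 tumors with the highest summed level of the set are all Plk2-null, so the genotypes were also compared without the 5 named tumors. The tumors left out were chosen with these values in view, and the highest p53-/- tumors stay in, which by itself moves the differences down, so the values are given as a description. Flt1 and Ptprb remained higher, with log2 differences of 0.89 (SE 0.27) and 0.74 (SE 0.25), where 25.1% of all genes were higher. Past the same threshold, 7 of 34 genes were lower in the 24 Plk2-null than in the 12 p53-/- tumors, where 18.3% of all genes were lower, a share near that of the set. Esam ran from 163 to 650 (median 396) in the Plk2-null and from 330 to 1976 (median 738) in the p53-/- tumors, a log2 difference of -1.04 (SE 0.22). Cd34 ran from 375 to 1078 (median 724) and from 443 to 4211 (median 1108), a difference of -0.85 (SE 0.24). The other 5 were Rasip1 at -0.85, Egfl7 at -0.54, Eng at -0.87, Aplnr at -1.14 and Icam2 at -0.65. Without p53null-10155 and p53null-10151 as well, 3 genes were lower (Esam, Cd34 and Rasip1) and 3 higher (S1pr1, Flt1 and Ptprb), where 17.1% of all genes were lower and 42.1% differed in either direction.

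These genotype results depend on the tumors entered. Taken here as primary were 7 Plk2-null tumors, PLK2null-7747, PLK2null-7748, PLK2null-7749, PLK2null-7750, PLK2null-7753, PLK2null-7763 and PLK2null-7764. Neither the labels nor the written text of the study says by number which tumors are primary. With just these 7 against the 13 p53-/- tumors, limma called no gene of the set, and 0 had an unadjusted p under 0.05, where 11.6% of all genes were called higher and 5.69% lower. The log2 difference was then 0.72 for Flt1 and 0.92 for Ptprb. Every title of a p53-/- tumor carries a series number that no Plk2-null title has, so whatever that number marks and the genotype cannot be told apart. Nothing says that tumors arose separately, so the p-values measure the spread between these tumors.

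**Figure D4:**
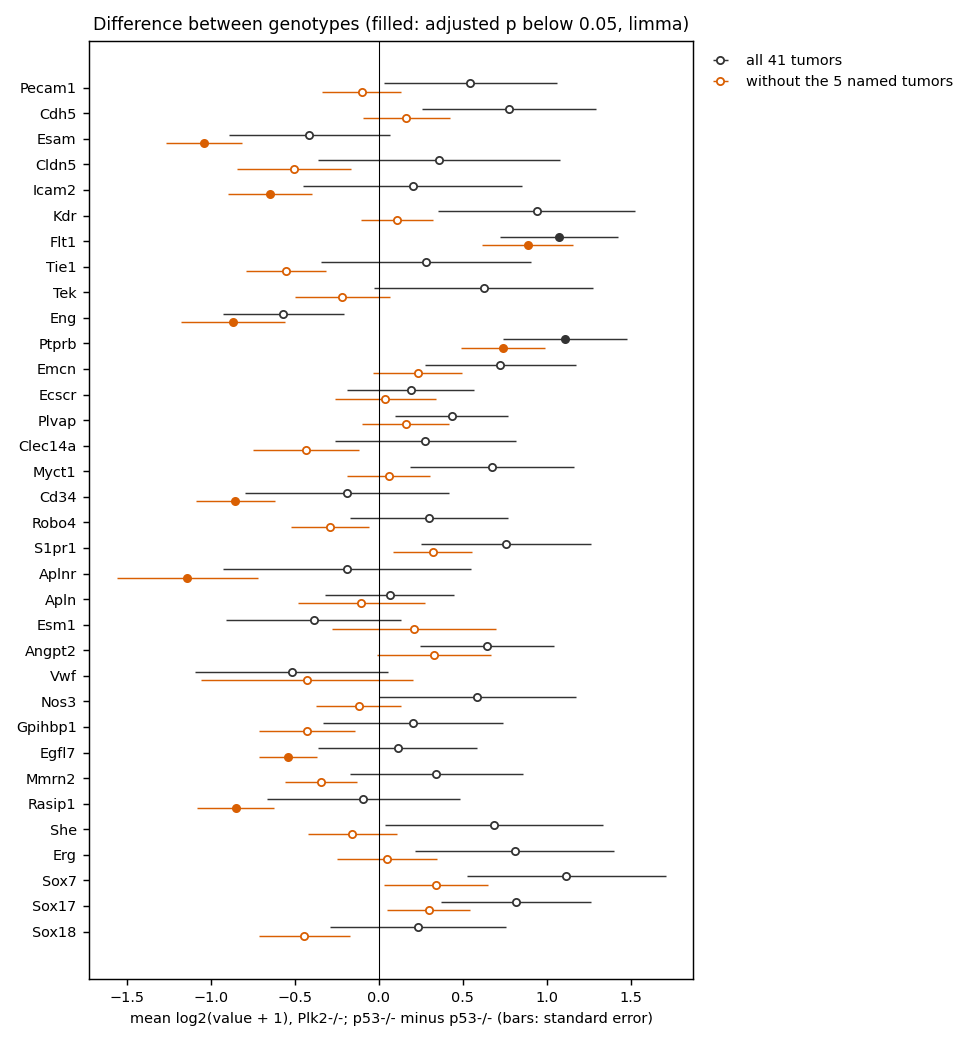
Log2 difference of each gene, Plk2-null minus p53-/- tumors, with the SE as bars, in all 41 tumors (dark) and without the 5 named tumors (orange); filled points have a limma adjusted p below 0.05. Flt1 and Ptprb are filled in both. Once the 5 tumors are left out, 7 further genes are filled left of 0: Esam, Icam2, Eng, Cd34, Aplnr, Egfl7 and Rasip1.

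Other genes of the vascular pathways were read from lists beside the set. Among VEGF and angiopoietin genes, 2 of 8 were at least 4-fold above the other tumors in each of PLK2null-732, PLK2null-733, PLK2null-743 and PLK2null-7763, the co-receptors Nrp1 and Nrp2. All counts of these lists stand against the same 9.39, 9.43, 9.55 and 8.75% of all genes. Nrp2 was at 27.96, 35.8, 29.7 and 10.9-fold, and the ligand Vegfa at 0.53, 0.61, 0.73 and 0.80 of the median. Of 8 vascular Notch genes, 4, 5, 4 and 5 passed in those tumors, with the tip-cell Notch ligand Dll4 at 25.8, 20.98, 19.6 and 10.6-fold and Notch4 at 18.3, 20.3, 20.2 and 10.7-fold. Among 7 other tip-cell genes, 5, 5, 5 and 4 passed, with the semaphorin receptor Plxnd1 at 28.7, 25.99, 35.7 and 10.1-fold and the chemokine receptor Cxcr4 at 2.23, 1.70, 1.28 and 2.05-fold. Of 11 other endothelial transcription factors, 10, 10, 10 and 5 passed, Tal1 at 56.3, 59.3, 59.9 and 18.98-fold. The fatty acid binding gene Fabp4 of capillaries stood at 120, 115, 145 and 59.9-fold, and the arterial connexin Gja4 at 21.7, 26.6, 21.9 and 13.3-fold. Of 6 BMP pathway genes, 2, 1, 2 and 2 passed, of 3 arterial genes 2, 1, 1 and 2, of 5 venous genes 3, 2, 2 and 2, and of 4 capillary genes 3, 3, 3 and 4. In p53null-T11, against 4.68% of all genes, 2 of 8 VEGF and angiopoietin genes passed, with Nrp2 at 10.4-fold, and 0 of 8 Notch genes. There 1 of 7 other tip-cell genes, 3 of 11 transcription factors and 1 of 6 BMP genes passed. The arterial, venous and capillary counts there were 0 of 3, 1 of 5 and 0 of 4.

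In the genotype test over all 41 tumors, the numbers of these lists called higher in the Plk2-null tumors were 2 of 8 VEGF and angiopoietin genes (Vegfa and Nrp2), 2 of 8 Notch genes (Notch1 and Notch4), 1 of 7 tip-cell genes (Unc5b), 1 of 6 BMP genes (Bmpr2) and 3 of 11 transcription factors (Lmo2, Mef2c and Klf2). The arterial kinase Bmx was lower, 1 of 3, and limma called 0 of 4 venous and 0 of 3 capillary genes tested, with 1 (Ephb4) and 0 at an unadjusted p under 0.05. Over these lists together, 9 of 50 tested genes were higher and 1 lower, where 24.3% and 15.3% of all genes were.

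Markers of other cell types moved with the endothelial genes in part. In PLK2null-732, PLK2null-733, PLK2null-743 and PLK2null-7763, 9.39, 9.43, 9.55 and 8.75% of all genes lay at least 4-fold above the median of the others. The shares at least 4-fold below were 9.26, 9.62, 8.83 and 2.84%. The summed level of the 34 genes was 492319 in PLK2null-732, 465703 in PLK2null-733, 435067 in PLK2null-743, 197297 in PLK2null-7763 and 40784 in p53null-T11, with the others at 8581 to 54622 (median 18174). The 6 lymphatic markers summed to 39083, 42590, 60486 and 20042 in the first 4 tumors (others 330 to 14647), 5 of 6 being past 4-fold in each. Prox1 was at 257, 400, 301 and 124-fold and Mmrn1 at 2576, 2973, 3261 and 1091-fold, above every fold among the 34 genes. Mmrn1 had a mean of 14.4 in the p53-/- tumors. In p53null-T11, 3 of 6 passed (Lyve1, Pdpn and Reln), against 4.68% of all genes. Pdpn, the exception in the first 4 tumors, was at 0.16, 0.033 and 0.16 of the median of the others in PLK2null-732, PLK2null-733 and PLK2null-743 and at 2.01-fold in PLK2null-7763. The 7 pericyte markers summed to 89570, 106402, 98351 and 35871 (others 3459 to 21148), and the 6 red cell markers to 351849, 139074, 94971 and 21535 (others 491 to 45104). In contrast, the 6 epithelial markers summed to 291, 67.1, 45.7 and 13539 in those tumors and 33742 in p53null-T11, where the others ran from 34899 to 295213. T cell markers summed to 615, 1036, 1416 and 461 and B cell markers to 661, 845, 887 and 512, where the medians of the others were 86.3 and 28.8. All 6 T cell and all 4 B cell markers were past 4-fold above in each of the 4 tumors, though both sums were within the ranges of the others (19.8 to 1563 and 7.91 to 4616), which peak in PLK2null-1981. Fibroblast markers summed to 14888, 20545, 56137 and 56094 (others 12210 to 280437), and 5 of 6 in PLK2null-732 and 4 of 6 in PLK2null-733 lay at least 4-fold below the median, beside 0 in PLK2null-743 and PLK2null-7763, where 1 lay as far above in PLK2null-7763. Macrophage markers summed to 9382, 9306, 15647 and 9980 (others 3471 to 26329), with 1 of 6 past 4-fold above in PLK2null-743 alone. Platelet markers, which share Vwf with endothelium, summed to 1308, 757, 1561 and 679 (others 120 to 1028). Adipocyte markers summed to 32.2, 43.1, 97.1 and 554 (others 0 to 2795) and muscle markers to 41.5, 35.3, 29.9 and 39.1 (others 17.1 to 34313), with Lep at 0 in PLK2null-732 and Myh4 at 0 in all 5 named tumors. Between the genotypes over all 41 tumors, limma called 1 of 7 pericyte markers (Abcc9) and 2 of 6 macrophage markers (Cd68 and Itgam) higher in the Plk2-null tumors. Of all genes, 24.3% were higher and 15.3% lower. Called lower in the Plk2-null tumors were 2 of 5 red cell markers (Hba-a2 and Hbb-bt), 1 of 3 adipocyte markers (Cfd) and all 4 muscle markers. Of the lymphatic, epithelial, fibroblast, platelet, T cell and B cell markers 0 were called, with 1, 1, 1, 1, 0 and 0 at an unadjusted p under 0.05 in limma. The part of these cell types in the endothelial results was not tested.

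**Figure D5:**
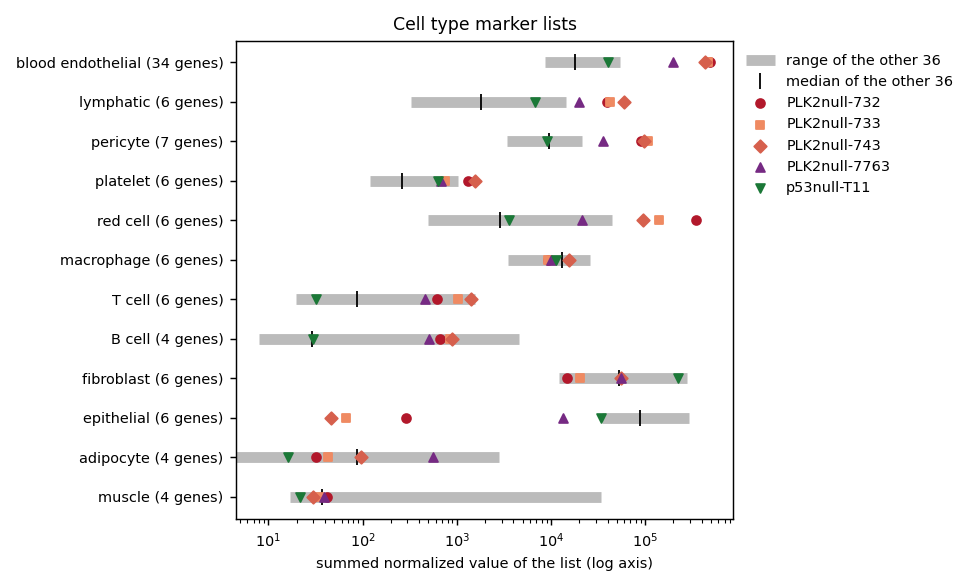
Summed normalized value (log axis) of the 34 blood endothelial genes and of 11 marker lists, with the grey bar spanning the other 36 tumors (the adipocyte bar starts at 0, off the axis), the tick their median and the symbols the 5 named tumors. The endothelial sum is 435067 to 492319 in PLK2null-732, PLK2null-733 and PLK2null-743 and the epithelial sum 45.7 to 291 there.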

How the data were processed

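RNA was measured in 41 mouse mammary tumors, 28 Plk2-/-; p53-/- and 13 p53-/-. Per the labels, total RNA was made into mRNA libraries and sequenced as paired ends. The authors aligned reads to mm10 with STAR 2.7.6a and obtained gene-level estimated counts with Salmon 1.4.0. SAMtools and Picard 2.22.4 are also in the submitters' processing notes, with no role stated. The deposited signal is linear and upper-quartile normalized. The upper quartile of the values above 0 was 1000 in p53null-2224L, the tumor checked. Upper-quartile scaling moves every gene of a tumor together, and the gene annotation used is not given in the sources used here.

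Genotype was taken from the labels and the columns of the table matched tumors by name. Low values lay on steps of 1 read, but only 77.8 to 80.5% of values came within 0.1 of a whole read, so reads were not recovered and no count model was used. Values were log2(value + 1) transformed. Genes with a mean of at least 10 were tested by limma (version 3.58.1, run in R 4.3.3 with the trend option off) and adjusted by Benjamini-Hochberg over all genes with a threshold of 0.05. Folds of single tumors are 2 to the power of the difference from the median of the other 36 tumors on the log2(value + 1) scale, with no test. Implied fragments are the total value divided by that of 1 read, and the floor covers counting error only. The closest pair of tumors, PLK2null-1984 and PLK2null-7750, reached a median chi-square of 6.41 over 12880 genes, where sampling noise gives 0.455. No pair was therefore taken as the same library sequenced again, and each tumor was counted once. This cannot show that tumors do not share an origin. The limma fit was tested on simulated data. Other steps used Python 3.11.15, numpy 2.4.6, pandas 2.3.3, scipy 1.17.1 and matplotlib 3.10.9. Positions and exon lengths came from GENCODE vM21 on GRCm38, the build of mm10, and promoters from RefSeq on GRCm38.p6.

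All 34 genes are named by rule. The genes, the lists beside them and the 5 named tumors were chosen with earlier results of these data known. Alternatives were other pseudocounts, filters, scalings, reference tumors, ratio denominators and sets of tumors.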

Additional observations from a re-analysis of the deposited data

How the results depend on the processing

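Over all 41 tumors, the same 2 genes, Flt1 and Ptprb, were called higher between genotypes with other pseudocounts and filters, a limma trend, TMM (trimmed mean of M values) rescaling and quantile normalization. TMM rescaling moved the median difference of all genes by -0.12 on the log2 scale, quantile normalization by -0.08, and the calls over all genes from 4175 higher and 2627 lower to 3340 and 3549 with TMM and 3425 and 3325 with quantiles. Egfl7 turned from 0.11 to -0.0085 with TMM. Without the 5 named tumors 7 genes were called lower, and without PLK2null-732, PLK2null-733 and PLK2null-743, 2 were (Eng and Esam). Egfl7 then differed by -0.54 and -0.39 and Icam2 by -0.65 and -0.48. With just the 7 Plk2-null tumors taken as primary, 0 were called higher and Egfl7 was at -0.0068. The remaining 4 sets were chosen after seeing the data. Without the 5 named tumors, 8 genes were called lower with TMM and 8 with quantiles, Tie1 being added both times, with Egfl7 at -0.64 and -0.60 and Icam2 at -0.75 and -0.77. With p53null-10155 and p53null-10151 left out too, 3 were called lower, Egfl7 was at -0.40 and Icam2 at -0.42. The tumors taken as primary were also compared without PLK2null-7763, leaving 6, against the p53-/- tumors without p53null-T11. There 0 were called higher and 1 lower (Esam), with Egfl7 at -0.54, Icam2 at -0.63 and Angpt2 at -0.27. Fewer tumors enter these fits, and the cause of the other shifts was not tested.

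The counts of genes at least 4-fold above the other tumors stayed within 1.5 times under every alternative run, except for 9 in p53null-T11 at a 2-fold limit. With Tie1 in place of Cdh5 as the denominator, the log2 difference from the median ratio was -4.83 for Apln and -8.26 for Esm1 in PLK2null-743. In PLK2null-732, PLK2null-733, PLK2null-743 and PLK2null-7763 it was -3.50, -2.99, -3.96 and -2.59 for Angpt2, -0.30, -0.49, -0.94 and -0.13 for Nos3 and -1.11, -0.98, -1.74 and -0.83 for Gpihbp1. Depth limits none of the 34 genes, all of which lay above the floor in every tumor. No paired analysis was possible because the labels give no replicate numbers that groups share.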
